A study of Mus musculus with 72 samples.

Results

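Transcript levels of 35 genes of protein folding in the endoplasmic reticulum (ER) and of the unfolded protein response were followed in mouse liver and muscle, fed and after a fast. The genes were taken by symbol from a list of chaperones, folding enzymes, stress sensors, degradation genes and translocation genes, and all 35 were found among the 20561 genes of the whole-gene table and the 19433 genes of the exonic and intronic tables. RNA came from liver and gastrocnemius muscle of male C57BL/6J mice aged 8 weeks, of no stated mutation, kept in 12 h of light and 12 h of dark. Fed mice had normal chow at all times, and fasted mice had been without food for 24 h. Tissue was taken at 6 times 4 h apart, at Zeitgeber time (ZT) 0, 4, 8, 12, 16 and 20, counted from lights on. Each of the 24 combinations of tissue, state and time had 3 libraries, 72 in all, so that a tissue had 18 fed and 18 fasted libraries.

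The ER folds proteins that are secreted or sit in membranes. Nascent chains enter through the Sec61 channel and are folded by Hsp70 and Hsp90 chaperones with their J-domain partners, by the lectins calnexin and calreticulin, and by disulfide isomerases that the Ero1 oxidases keep oxidised. When unfolded proteins build up, 3 sensors respond: Ern1 (IRE1α) splices Xbp1 mRNA into that of an active transcription factor, Eif2ak3 (PERK) slows translation, and Atf6 is cleaved to release a transcription factor. Their targets include the chaperones and the genes of ER-associated degradation, which returns misfolded proteins to the cytosol for the proteasome. Hepatocytes secrete most plasma proteins and are rich in rough ER, while muscle fibres hold a specialised ER that stores calcium. Values for whole genes do not separate spliced from unspliced Xbp1 mRNA.

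Tissue identity was as labelled. Alb, the hepatocyte albumin gene, stood at 3.18e+04 to 5.13e+04 FPKM in the liver libraries, and Acta1, the skeletal muscle actin gene, at 1.23e+04 to 2.21e+04 FPKM in the muscle libraries, where FPKM is a count of fragments scaled to the transcript's length and the library's total. Some libraries held transcripts of the other tissue, at most 0.187% of fed liver, 0.437% of fasted liver, 0.289% of fed muscle and 0.00713% of fasted muscle, as a share of the other tissue's marker sum. Scaled by these shares, liver RNA could supply at most 8.50% of the level of an ER gene in fed muscle (Pdia5), and no more than 0.675% of one in the other 3 combinations of tissue and state. All fed liver libraries of ZT8 to ZT20 held muscle transcripts, and those of ZT0 and ZT4 almost none. The former also had fewer estimated reads. Fed muscle held liver transcripts from ZT0 to ZT12 and almost none at ZT16 and ZT20. What this split by time marks is not in the labels, and its part in the results by time was not tested. A pair of liver libraries stood apart from the others of their groups in the mean log2 level of the 10 chaperone genes. Replicate 5 of fed ZT0 was at 5.79 against 4.77 and 4.90, and replicate 4 of fasted ZT4 was at 5.88 against 5.00 for each of the others. Without the first, 2 genes rose in liver in place of 1, and 24 fell as before. Without the second, these counts were 1 and 24, and other results that moved are given with their values. In bulk tissue, fewer cells of a type and less RNA per cell cannot be told apart.

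The promoters of ER chaperone genes are known for the ER stress element (ERSE), which Atf6 and Xbp1 bind with NF-Y. The windows from 250 bases before to 50 after the transcription start were searched on both strands for CCAAT, 9 bases of any kind and CCACG (ERSE), for ATTGG, 1 base of any kind and CCACG (ERSE-II), and for TGACG followed directly by TGG (UPRE). RefSeq windows (GRCm38.p6) were at hand for 28 of the 35 genes. An ERSE was found in 10 of the 28 (Hspa5, Hsp90b1, Dnajc3, Creld2, Calr, Canx, Pdia6, Ero1lb, Syvn1 and Derl3), against 0.119% of all 32851 windows of this length. An ERSE-II was found in Dnajb11 and Herpud1, against 0.0365% of all windows, and the UPRE letters in none of the 28, against 0.676% of all windows. By role, 8 of 16 folding genes, 2 of 10 degradation or sensor genes and 0 of 2 translocation genes held an ERSE. The 5 windows printed here are those of the chaperones Hspa5 and Hsp90b1, of the isomerase Pdia6, which fell in both tissues, and of the degradation genes Syvn1 and Herpud1, which rose in fasted muscle. Each runs 5′ to 3′ on the gene's own strand, with the fixed bases of the element in capitals.
Hspa5 (chr2:34771840-34772139, plus strand): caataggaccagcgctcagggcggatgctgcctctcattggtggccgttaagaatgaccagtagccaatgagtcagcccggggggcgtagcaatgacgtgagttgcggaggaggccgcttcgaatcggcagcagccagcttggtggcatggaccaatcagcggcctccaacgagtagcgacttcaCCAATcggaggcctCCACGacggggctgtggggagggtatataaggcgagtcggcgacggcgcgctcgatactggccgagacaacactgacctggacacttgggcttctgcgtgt
Hsp90b1 (chr10:86705395-86705694, minus strand, with 2 elements): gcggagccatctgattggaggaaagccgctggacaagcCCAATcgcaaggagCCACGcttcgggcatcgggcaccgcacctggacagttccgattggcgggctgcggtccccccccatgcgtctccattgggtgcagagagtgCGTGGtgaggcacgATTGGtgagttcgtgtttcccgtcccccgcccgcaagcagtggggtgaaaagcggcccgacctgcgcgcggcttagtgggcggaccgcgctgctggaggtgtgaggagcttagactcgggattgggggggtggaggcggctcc
Pdia6 (chr12:17266339-17266638, plus strand): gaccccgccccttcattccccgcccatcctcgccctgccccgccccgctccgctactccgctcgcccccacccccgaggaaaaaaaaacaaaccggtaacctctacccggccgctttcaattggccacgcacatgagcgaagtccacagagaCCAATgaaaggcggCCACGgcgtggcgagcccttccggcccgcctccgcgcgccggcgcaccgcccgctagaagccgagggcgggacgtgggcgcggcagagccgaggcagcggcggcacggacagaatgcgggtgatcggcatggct
Syvn1 (chr19:6046326-6046625, plus strand): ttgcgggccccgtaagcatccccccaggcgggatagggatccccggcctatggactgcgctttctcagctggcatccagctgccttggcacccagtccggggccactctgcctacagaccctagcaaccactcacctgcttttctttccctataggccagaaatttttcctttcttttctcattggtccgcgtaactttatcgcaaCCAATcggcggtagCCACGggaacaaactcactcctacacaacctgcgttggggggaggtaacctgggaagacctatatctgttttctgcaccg
Herpud1 (chr8:94386179-94386478, plus strand, ERSE-II): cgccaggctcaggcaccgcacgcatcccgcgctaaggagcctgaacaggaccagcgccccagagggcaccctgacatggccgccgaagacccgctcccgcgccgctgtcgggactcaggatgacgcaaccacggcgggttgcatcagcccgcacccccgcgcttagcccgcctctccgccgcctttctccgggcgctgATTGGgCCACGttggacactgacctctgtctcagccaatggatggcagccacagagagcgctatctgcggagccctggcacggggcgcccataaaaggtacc
Relative to the start, the element begins at base -65 in Hspa5, -98 in Pdia6, -44 in Syvn1 and -52 in Herpud1. Hsp90b1 holds an element on each strand, beginning at bases -212 and -107. A match describes these letters only.

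All 35 genes were higher in fed liver than in fed muscle, by their means over 18 libraries each. The share of all genes higher in fed liver is not given here, so this count is not read as particular to them. The liver level was 1.75 times that of muscle for Dnajb9, a J-domain co-chaperone also called ERdj4, and 33.9 times for the disulfide isomerase gene Pdia5, with a median of 6.16 times over the 35 genes. FPKM values are per length, so levels can be ranked within a tissue. P4hb, the classical protein disulfide isomerase, had the highest fed level of the 35 in both tissues (605 ± 63.5 FPKM in liver and 68.2 ± 2.78 FPKM in muscle; SD, n = 18), and Calr, the soluble lectin calreticulin, was next (411 ± 103 and 64.9 ± 4.26 FPKM). Hspa5, the Hsp70 chaperone BiP, came 3rd in liver (341 ± 101 FPKM) and 4th in muscle (61.4 ± 5.42 FPKM), behind Herpud1 (64.8 ± 6.99 FPKM in muscle), and the SDs of these 4 muscle levels overlapped. Derl3, a derlin of the degradation channel, was lowest in both, with a median of 0.689 FPKM in fed liver and 0.0563 FPKM in fed muscle.

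Fasting lowered most of these genes in liver. Over the 6 times, 24 of the 35 fell, 1 rose (Herpud1) and 10 did not pass (limma on log2(FPKM + 0.5), adjusted over 10780 genes, threshold 0.05). Of all genes tested, 48% fell and 25% rose. The median log2 change of the 35 genes was -0.63, and that of all genes was -0.13. The 24 falls and the 1 rise also passed with median-of-ratios scaling and with quantile normalisation, which moved the all-gene median to 0.04 and 0.01, and median-of-ratios scaling gave 5 higher and 24 lower. How the replicates relate is not in the labels, and the p-values reflect the spread of these libraries, which may be technical.

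Among the 19 folding genes, 13 fell in liver and none rose, with a median log2 change of -0.55. The largest fall was that of Sdf2l1, a partner of BiP complexes, at 5.80, 24.97 and 52.5 FPKM in the lowest, median and highest fed library and 0.914, 6.60 and 21.9 FPKM in the fasted. Fasted libraries lay mostly below the fed, with overlap, and the log2 change was -1.90 ± 0.29 (SE, adjusted p = 5.33e-07). Pdia6, an isomerase that also binds sensors, went from 93.4, 147 and 213 FPKM to 21.9, 58.5 and 96.5 FPKM. Only the ends of its ranges overlapped, with a change of -1.39 ± 0.14 (adjusted p = 9.70e-11). Other falls among the chaperones were those of the secreted ER factor Manf (-1.22 ± 0.26), the Hsp110-type exchange factor Hyou1 (-0.83 ± 0.19), the J-domain protein Dnajb11 (-0.55 ± 0.13) and the Hsp70-like Hspa13 (-0.55 ± 0.11). Both lectins fell, Calr by 0.65 ± 0.17 and the membrane-bound calnexin gene Canx by 0.63 ± 0.07 on the log2 scale. Of 7 oxidoreductase genes, 6 fell, from P4hb (-0.48 ± 0.09) and Pdia5 (-0.54 ± 0.08) through Pdia3 and the oxidase Ero1lb (both -0.79) and Pdia4 (-0.83 ± 0.19) to Pdia6.

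The 6 folding genes that did not pass in liver included the most abundant chaperones. Hspa5 stood at 206, 339 and 504 FPKM in fed and 122, 273 and 667 FPKM in fasted liver, so that the fasted range enclosed the fed one (-0.29 ± 0.17, adjusted p = 0.125). It passed without fasted ZT8 replicate 1 (-0.36, adjusted p = 0.0465). Its Hsp90 partner Hsp90b1 (0.11 ± 0.12) and the J-domain protein Dnajc3 (0.08 ± 0.10) were as close to 0 as their errors. Creld2, a small ER stress-induced isomerase, had the largest change that did not pass, from 9.97, 22.5 and 71.1 FPKM to 9.12, 17.5 and 51.4 FPKM (-0.39 ± 0.22, adjusted p = 0.102), with wide overlap. It passed without fasted ZT8 replicate 1 (-0.49) or fed ZT8 replicate 5 (-0.48). Dnajb9 (0.18 ± 0.12, and 0.25 with an adjusted p of 0.0483 without fed ZT0 replicate 5) and the oxidase Ero1l (-0.02 ± 0.08, above 0 at 0.15 and 0.096 under the scalings above) were the others.

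Of the sensor genes, 3 of 4 fell in liver. Xbp1, the transcription factor spliced by Ern1, went from 63.0, 99.9 and 148 FPKM in fed to 32.0, 46.5 and 74.1 FPKM in fasted libraries. Its fasted and fed ranges overlapped only at their ends, with a change of -1.06 ± 0.10 (adjusted p = 2.41e-11). Ern1 itself went from 7.20, 10.8 and 14.1 FPKM to 2.73, 5.81 and 9.48 FPKM (-0.81 ± 0.11, adjusted p = 9.27e-08), again with some overlap. Eif2ak3, the kinase PERK, went from 2.601, 3.66 and 5.31 FPKM to 1.86, 2.41 and 4.13 FPKM (-0.48 ± 0.09, adjusted p = 2.34e-05). Atf6 did not pass, at 6.72, 10.98 and 14.6 FPKM fed and 8.91, 11.8 and 15.9 FPKM fasted (0.14 ± 0.08, adjusted p = 0.114). It passed without fasted ZT12 replicate 2 (0.17, adjusted p = 0.0368).

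Degradation genes split in liver, with 4 of 8 lower and 1 higher. Herpud1, a membrane protein that helps assemble the degradation complex, was at 88.4, 130 and 248 FPKM in fed and 116, 218 and 315 FPKM in fasted libraries. It was higher in most fasted libraries, with overlapping ranges, and rose by 0.66 ± 0.13 (adjusted p = 4.03e-05). Edem2, a mannosidase that marks glycoproteins for removal, went from 23.7, 28.7 and 33.9 FPKM to 9.64, 11.5 and 15.2 FPKM, and all fasted libraries lay below all fed ones (-1.23 ± 0.06, adjusted p = 3.64e-19). Its relative Edem1 (26.1, 37.0 and 43.0 to 10.2, 20.3 and 25 FPKM; -0.92 ± 0.09) and the derlin Derl2 (23.0, 28.3 and 33.4 to 9.92, 14.1 and 18.2 FPKM; -0.997 ± 0.051) did not overlap either. The share of all genes without overlap is not given here for liver. Sel1l, the adaptor of the ubiquitin ligase Syvn1, fell by 0.49 ± 0.12. Syvn1 itself (-0.11 ± 0.11), Derl1 (-0.12 ± 0.06) and Derl3 (-0.07 ± 0.24) did not pass, and all 3 were slightly above 0 under the other scalings. Derl1 passed in 6 of 36 fits that each left out 1 library, at -0.13 to -0.15.

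All 4 translocation genes fell in liver. Sec61b, the beta subunit of the channel, went from 63.1, 93.1 and 118 FPKM to 11.4, 26.5 and 39.6 FPKM, with no overlap (-1.80 ± 0.12, adjusted p = 3.54e-15). Sec61a1, the channel's core, went from 49.8, 66.3 and 88.5 FPKM to 27.9, 36.4 and 57.3 FPKM with some overlap (-0.83 ± 0.08, adjusted p = 4.11e-11). The subunits of the translocon-associated complex Ssr1 (9.89, 13.01 and 16.8 to 3.94, 5.73 and 8.84 FPKM, with no overlap; -1.03 ± 0.09) and Ssr2 (-0.73 ± 0.07) fell as well.

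**Figure D1:**
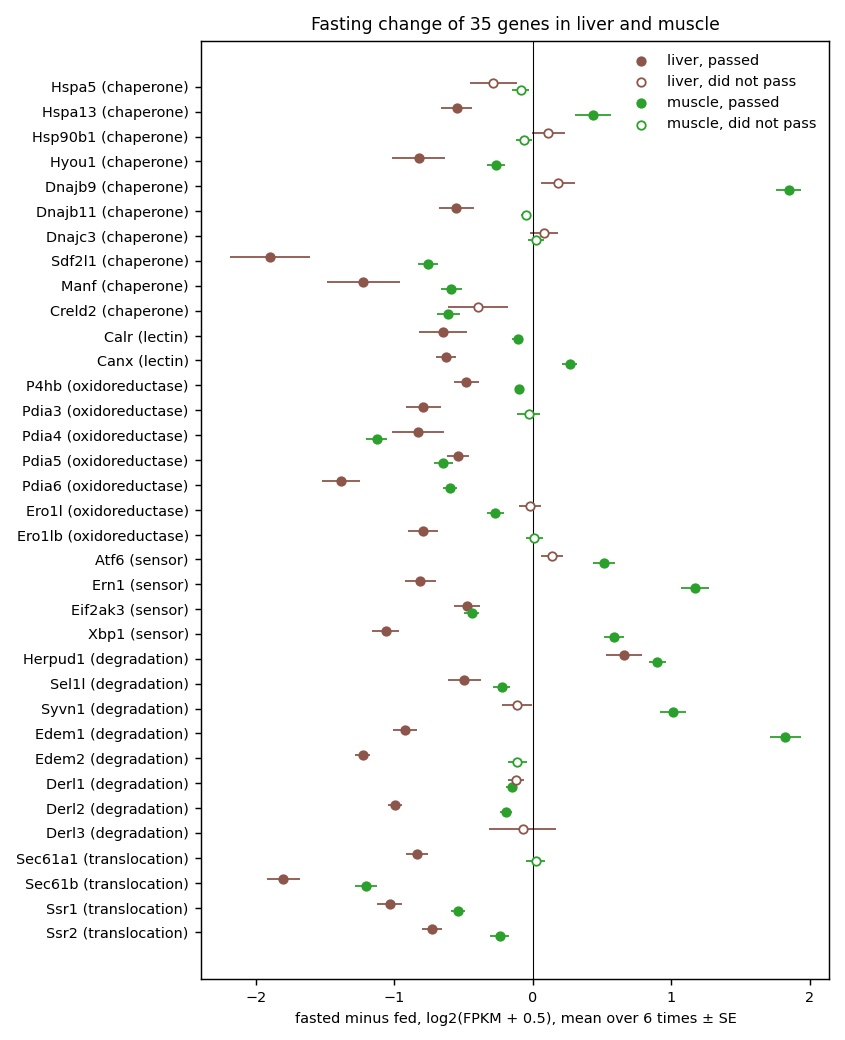
Fasting change of each of the 35 genes in liver and muscle, as fasted minus fed on the log2(FPKM + 0.5) scale with SE, ordered by role. Filled points passed the adjusted threshold and open points did not. Edem1 lies at -0.92 in liver and 1.82 in muscle, and Sec61b is low in both. With median-of-ratios scaling, Hspa5, Hsp90b1, Dnajb11, Calr, P4hb, Pdia3, Edem2 and Derl1 in muscle and Ero1l, Syvn1, Derl1 and Derl3 in liver move to above 0.

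In muscle the fast raised 6 of the 11 degradation and sensor genes tested, among them Edem1, Ern1, Syvn1 and Herpud1, where 30.3% of all 11223 genes rose. It lowered 10 of 19 folding genes, near the 51.8% of all genes that fell. Of 34 genes tested, 9 rose, 17 fell and 8 did not pass. Derl3 was too low to test. Their median log2 change was -0.10, against -0.17 over the whole table. Median-of-ratios scaling moved the latter to 0.02, and 18 of the 34 then rose and 10 fell. All 9 rises, but only 9 of the 17 falls, passed in the same direction under both other scalings. Those 9 falls were Sdf2l1, Manf, Creld2, Pdia4, Pdia5, Pdia6, Eif2ak3, Sec61b and Ssr1.

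Folding genes in muscle gave 3 rises, 10 falls and 6 that did not pass. Dnajb9, which hands substrates to degradation and binds Ern1, was at 10.4, 14.8 and 17.6 FPKM in fed and 33.4, 51.8 and 93.4 FPKM in fasted libraries. Every fasted library lay above every fed one, with a log2 change of 1.85 ± 0.09 (adjusted p = 3.73e-19). Hspa13 (0.44 ± 0.13, adjusted p = 0.00276) and Canx (0.27 ± 0.05, adjusted p = 2.62e-05) also rose. Pdia4 fell most, from 4.12, 5.47 and 7.63 FPKM to 1.34, 2.24 and 3.12 FPKM with no overlap (-1.13 ± 0.08, adjusted p = 3.04e-15). Next were Sdf2l1 (-0.76 ± 0.07), Pdia5 (-0.65 ± 0.07), Creld2 (-0.61 ± 0.08), Pdia6 (15.1, 18.6 and 23.3 to 10.04, 12.2 and 14.6 FPKM, with no overlap; -0.60 ± 0.05) and Manf (-0.59 ± 0.07). Hyou1 and Ero1l (both -0.27), Calr (-0.11 ± 0.04) and P4hb (-0.10) were the small falls. Calr and P4hb stood at 0.10 and 0.11 with median-of-ratios scaling, and Ero1l at 0.028 with quantile normalisation.

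Hspa5 did not pass in muscle, at 53.3, 60.5 and 74.8 FPKM fed and 44.5, 57.1 and 79.5 FPKM fasted (-0.09 ± 0.06, adjusted p = 0.173). The fasted range was the wider of both. It stood at 0.12 with median-of-ratios scaling, and Hsp90b1 and Dnajb11, which did not pass either, at 0.15 each.

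Of the sensor genes, 3 rose in muscle and Eif2ak3 fell. Ern1 was at 0.577, 1.87 and 2.23 FPKM in fed and 2.42, 4.27 and 7.06 FPKM in fasted libraries, with no overlap (1.17 ± 0.10, adjusted p = 2.00e-12). Xbp1 went from 18.1, 19.5 and 24.3 FPKM to 21.1, 31.1 and 43.8 FPKM (0.59 ± 0.07, adjusted p = 4.13e-09), and only its lowest fasted libraries reached the fed range. Atf6 went from 3.81, 5.86 and 6.97 FPKM to 5.07, 8.01 and 11.9 FPKM with overlap (0.51 ± 0.08, adjusted p = 5.82e-07). Eif2ak3 went from 0.949, 1.33 and 1.93 FPKM to 0.593, 0.868 and 1.25 FPKM with overlap (-0.44 ± 0.05, adjusted p = 4.77e-09).

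Degradation genes gave 3 rises and 3 falls among the 7 tested in muscle. Edem1 was at 1.06, 1.77 and 2.599 FPKM in fed and 4.53, 6.93 and 13.6 FPKM in fasted libraries (1.82 ± 0.11, adjusted p = 2.23e-16). Syvn1, the ubiquitin ligase of the degradation complex, was at 4.45, 5.17 and 5.59 FPKM and 5.73, 11.3 and 17.4 FPKM (1.01 ± 0.10, adjusted p = 1.53e-11), and Herpud1 at 53.8, 65.8 and 75.0 FPKM and 81.6, 122 and 149 FPKM (0.90 ± 0.06, adjusted p = 4.01e-15). None of these 3 genes overlapped between states, and the share of all genes without overlap is not given here for muscle. The falls were smaller, at -0.23 for Sel1l, -0.19 ± 0.04 for Derl2 and -0.15 ± 0.04 for Derl1, which stood at 0.054 with median-of-ratios scaling. Edem2 had the largest change that did not pass, from 2.17, 2.50 and 3.09 FPKM to 1.502, 2.26 and 3.35 FPKM (-0.11 ± 0.07, adjusted p = 0.124, and above 0 at 0.062 and 0.090 under the other scalings), and passed without fasted ZT12 replicate 2 (-0.14). Of the translocation genes, Sec61b went from 17.3, 23.2 and 33.3 FPKM to 6.42, 10.1 and 12.8 FPKM with no overlap (-1.21 ± 0.08, adjusted p = 1.37e-15). Ssr1 (-0.54 ± 0.05) and Ssr2 (-0.24 ± 0.07) fell, and Sec61a1 was at 0.02 and did not pass. The median log2 change of the 11 degradation and sensor genes was 0.51.

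Read by promoter, the 10 genes with an ERSE gave no rise, 4 falls and 6 that did not pass in liver, and 2 rises (Canx and Syvn1), 3 falls and 4 that did not pass in muscle, where Derl3 was not tested. The 16 genes with a window and no element gave 14 falls in liver and 4 rises and 10 falls in muscle. Median log2 changes were -0.34 with an ERSE and -0.82 without an element in liver, and -0.064 and -0.21 in muscle. These are descriptions without a test.

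The difference between tissues was tested directly for the 34 genes measured in both. The fasting change was lower in liver than in muscle for 24 and higher for 1, Ero1l (0.25 ± 0.09, adjusted p = 0.00762), where 38.5% of 9419 genes were lower and 31.8% higher. The higher count was 4 with quantile normalisation (Hsp90b1, Dnajc3, Pdia4 and Derl1, with Ero1l at 0.07, not passing), 3 with a pseudocount of 0.1, and 2 without fasted liver ZT12 replicate 5 or ZT20 replicate 4. Edem1 differed most, by -2.75 ± 0.12 (liver minus muscle, adjusted p = 1.32e-27), since it fell in liver and rose in muscle. Xbp1 (-1.65 ± 0.11) and Ern1 (-1.98 ± 0.16) did the same. Syvn1 (-1.13 ± 0.09) and Dnajb9 (-1.66 ± 0.13) rose in muscle and did not pass in liver, and Edem2 (-1.12 ± 0.08) fell in liver and did not pass in muscle. Derl2 (-0.81 ± 0.06) fell in both, by more in liver. The difference of Sel1l (-0.27, adjusted p = 0.0408) did not pass in 20 of 72 fits that each left out 1 library, nor with either other scaling or without the filter. The largest difference that did not pass was that of Pdia4 (0.30 ± 0.16, adjusted p = 0.0978), which fell in both tissues and passed without fasted liver ZT12 replicate 5 (0.38) or ZT20 replicate 4 (0.36). Herpud1 rose in both, with a difference of -0.24 ± 0.13 (adjusted p = 0.0925) that passed without fasted liver ZT0 replicate 1 (-0.29) or ZT4 replicate 1 (-0.28), and Eif2ak3 fell in both, with a difference of -0.03 ± 0.08 (adjusted p = 0.708).

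**Figure D2:**
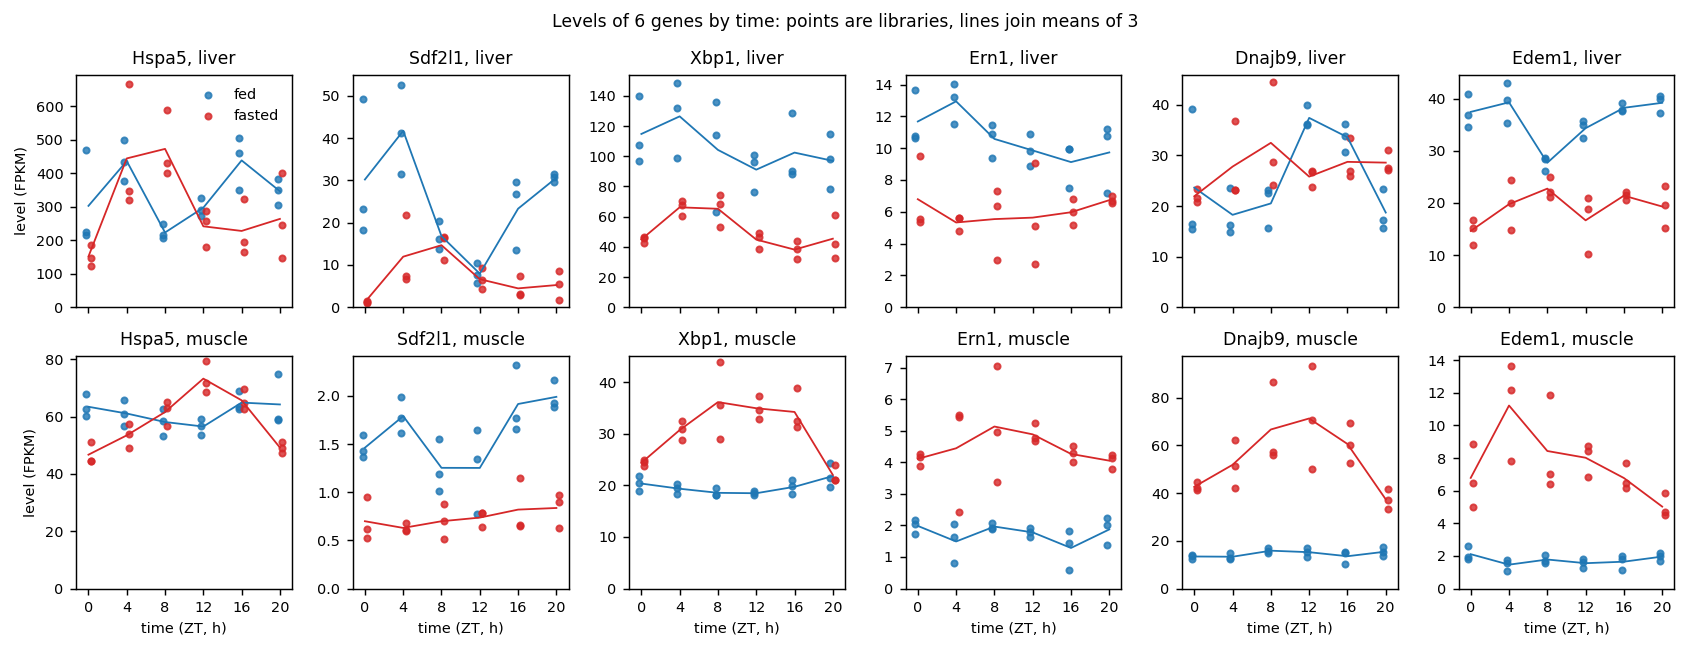
Levels in FPKM (linear axes from 0) of Hspa5, Sdf2l1, Xbp1, Ern1, Dnajb9 and Edem1 against time in liver (upper panels) and muscle (lower panels). Each point is a library and lines join the means of 3. Fasted Dnajb9 and Edem1 lie above the fed libraries in muscle at every time, while in liver the fasted mean of Hspa5 lies above the fed one at ZT8 and below it at ZT0 and ZT16.

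The fasting change of folding genes depended on the time of day. In liver, the interaction of time and feeding state passed for 25 of 35 genes, against 40.7% of all genes, among them 15 of 19 folding genes, 6 of 12 degradation and sensor genes and all 4 translocation genes. The smallest adjusted p-values were those of Calr (1.45e-05), Eif2ak3 (5.82e-05), Sec61b (6.37e-05), P4hb (7.71e-05), Sdf2l1 (8.71e-05) and Pdia6 (0.00013), and Sel1l came closest without passing (0.0602). The median change of the folding genes was -1.26 at ZT0, -0.80 at ZT4, 0.24 at ZT8, -0.41 at ZT12, -0.81 at ZT16 and -0.74 at ZT20. At ZT8, 13 of the 19 folding genes were above 0, and at ZT16 none was. The median of all genes tested was -0.14 at ZT0, and those of the other times, or of muscle by time, are not given here. Without fed ZT0 replicate 5 the median at ZT0 was -0.97, and 24 genes passed. Without fasted ZT4 replicate 4 the median at ZT4 was -0.93, and 27 genes passed. The medians of the degradation and sensor genes ran from -0.84 at ZT12 to -0.06 at ZT8.

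BiP shows the pattern in full. In fed liver Hspa5 averaged 303 ± 144, 436 ± 62.1, 223 ± 22.8, 297 ± 27.1, 438 ± 78.5 and 346 ± 39.4 FPKM at ZT0, 4, 8, 12, 16 and 20 (SD, n = 3). In fasted liver it averaged 152 ± 32.5, 444 ± 194, 473 ± 101, 242 ± 55.5, 228 ± 83.6 and 264 ± 128 FPKM. Fed liver thus had 2 high times, ZT4 and ZT16, and fasted liver was high at ZT8. The fasted mean at ZT4 was also high, but with the widest SD (194 FPKM). It includes replicate 4, which stood apart from the others of its group in chaperone level. The log2 change was -0.92 at ZT0, 1.07 at ZT8 and -0.99 at ZT16, each with an SE of 0.31 (interaction, adjusted p = 0.00463). Replicate 5 raised the fed mean of ZT0, and without it the change there was -0.55 ± 0.32 (interaction, adjusted p = 0.00524). At ZT8 the fasted libraries were at 588, 400 and 430 FPKM and the fed ones at 249, 215 and 206 FPKM, with no overlap. Manf changed from -2.90 at ZT0 to 1.01 at ZT8 (SE 0.42). Sdf2l1 was at 0.914, 1.14 and 1.58 FPKM in the fasted libraries of ZT0 and at 18.3, 23.2 and 49.2 FPKM in the fed ones, a change of -4.05 ± 0.44, and at -0.20 at ZT8. The highest fed mean lay at ZT4 for 13 of 19 folding genes, against 14.1% of all genes tested in liver, while the lowest fed means were spread over ZT0 (6), ZT4 (1), ZT8 (5) and ZT12 (7). The highest fasted mean lay at ZT8 for 17 of 19, against 14.3% of all genes, and the lowest at ZT0 for 15 of 19, against 20.5%.

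Of the sensors in liver, Eif2ak3 and Atf6 passed the interaction and Xbp1 and Ern1 did not. Xbp1 averaged 115 ± 22.4, 126 ± 25.1, 104 ± 37.4, 91.1 ± 13.2, 102 ± 22.8 and 97.0 ± 18.2 FPKM from ZT0 to ZT20 in fed liver and 44.9 ± 2.00, 66.2 ± 5.21, 65.2 ± 10.8, 44.8 ± 5.46, 38.2 ± 6.03 and 45.4 ± 14.5 FPKM in fasted liver. It was lower in the fasted group at each time, by 0.61 to 1.40 on the log2 scale, with an adjusted p of 0.282 for the interaction. Ern1 averaged 11.7 ± 1.69, 12.9 ± 1.29, 10.6 ± 1.07, 9.86 ± 0.99, 9.12 ± 1.41 and 9.73 ± 2.20 FPKM in fed and 6.79 ± 2.33, 5.33 ± 0.479, 5.54 ± 2.30, 5.63 ± 3.21, 5.97 ± 0.813 and 6.73 ± 0.23 FPKM in fasted liver. It too was lower in the fasted group at each time. Eif2ak3 averaged 4.33 ± 0.328, 3.00 ± 0.149, 3.24 ± 0.239, 4.56 ± 0.746, 4.66 ± 0.429 and 2.97 ± 0.398 FPKM in fed and 2.49 ± 0.211, 3.49 ± 0.56, 3.00 ± 0.908, 2.08 ± 0.0683, 2.14 ± 0.286 and 2.32 ± 0.193 FPKM in fasted liver. Its change ran from -0.97 at ZT16 to 0.18 at ZT4. Atf6 averaged 7.73 ± 0.948, 12.0 ± 1.72, 11.3 ± 0.575, 12.5 ± 1.25, 11.4 ± 2.78 and 9.88 ± 1.21 FPKM in fed and 12.6 ± 1.37, 9.96 ± 0.537, 11.5 ± 1.41, 12.3 ± 3.48, 12.5 ± 1.43 and 12.2 ± 0.75 FPKM in fasted liver, and stood apart between states mainly at ZT0 (0.67).

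In muscle the interaction passed for 15 of 34 genes, against 22.9% of all genes, among them 7 of 19 folding genes and 6 of 11 degradation and sensor genes. With quantile normalisation 9 of 34 passed. Hspa13 (adjusted p = 9.95e-08), Syvn1 (1.97e-07), Xbp1 (5.75e-05), Pdia3 (8.30e-05), Hspa5 (0.00017) and Atf6 (0.000225) had the smallest p-values, and Dnajb9 came closest without passing (0.0514). Syvn1 changed by 0.46, 1.04, 1.497, 1.58, 1.25 and 0.25 from ZT0 to ZT20 (SE 0.11), and Hspa13 from -0.42 at ZT0 to 1.48 at ZT16 (SE 0.14). Syvn1 was thus higher in fasted muscle at all 6 times and most so from ZT8 to ZT16, the hours around lights off.

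Hspa5 averaged 63.5 ± 3.93, 61.1 ± 4.61, 58.1 ± 4.75, 56.6 ± 2.75, 64.9 ± 3.42 and 64.3 ± 9.09 FPKM in fed and 46.7 ± 3.82, 53.5 ± 4.30, 61.6 ± 4.403, 73.3 ± 5.57, 65.7 ± 3.64 and 49.2 ± 2.01 FPKM in fasted muscle. It was lower in fasted muscle at ZT0 (-0.44 ± 0.09) and higher at ZT12 (0.37 ± 0.09). Xbp1 averaged 20.3 ± 1.41, 19.3 ± 0.924, 18.5 ± 0.749, 18.5 ± 0.397, 19.7 ± 1.39 and 21.8 ± 2.34 FPKM in fed and 24.4 ± 0.62, 30.7 ± 1.78, 36.1 ± 7.41, 34.9 ± 2.18, 34.2 ± 4.08 and 22.02 ± 1.63 FPKM in fasted muscle. Its states were apart from ZT4 to ZT16 and together at ZT20. Atf6 averaged 6.56 ± 0.347, 5.55 ± 1.08, 5.83 ± 0.355, 5.89 ± 0.0776, 4.94 ± 1.02 and 6.03 ± 0.395 FPKM in fed and 6.97 ± 0.52, 6.56 ± 1.33, 8.28 ± 0.469, 10.8 ± 0.44, 11.4 ± 0.481 and 7.69 ± 0.43 FPKM in fasted muscle, with the widest gap at ZT16. Ern1 averaged 1.99 ± 0.222, 1.49 ± 0.632, 1.97 ± 0.103, 1.78 ± 0.133, 1.29 ± 0.642 and 1.87 ± 0.44 FPKM in fed and 4.11 ± 0.193, 4.45 ± 1.75, 5.14 ± 1.84, 4.89 ± 0.304, 4.27 ± 0.245 and 4.05 ± 0.234 FPKM in fasted muscle. Eif2ak3 averaged 1.37 ± 0.159, 1.39 ± 0.143, 1.56 ± 0.372, 1.14 ± 0.166, 1.20 ± 0.224 and 1.40 ± 0.115 FPKM in fed and 0.971 ± 0.0499, 0.979 ± 0.257, 0.868 ± 0.0813, 0.743 ± 0.154, 0.714 ± 0.14 and 0.856 ± 0.0638 FPKM in fasted muscle. These last 2 sensors moved in opposite directions and kept them at each time.

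**Figure D3:**
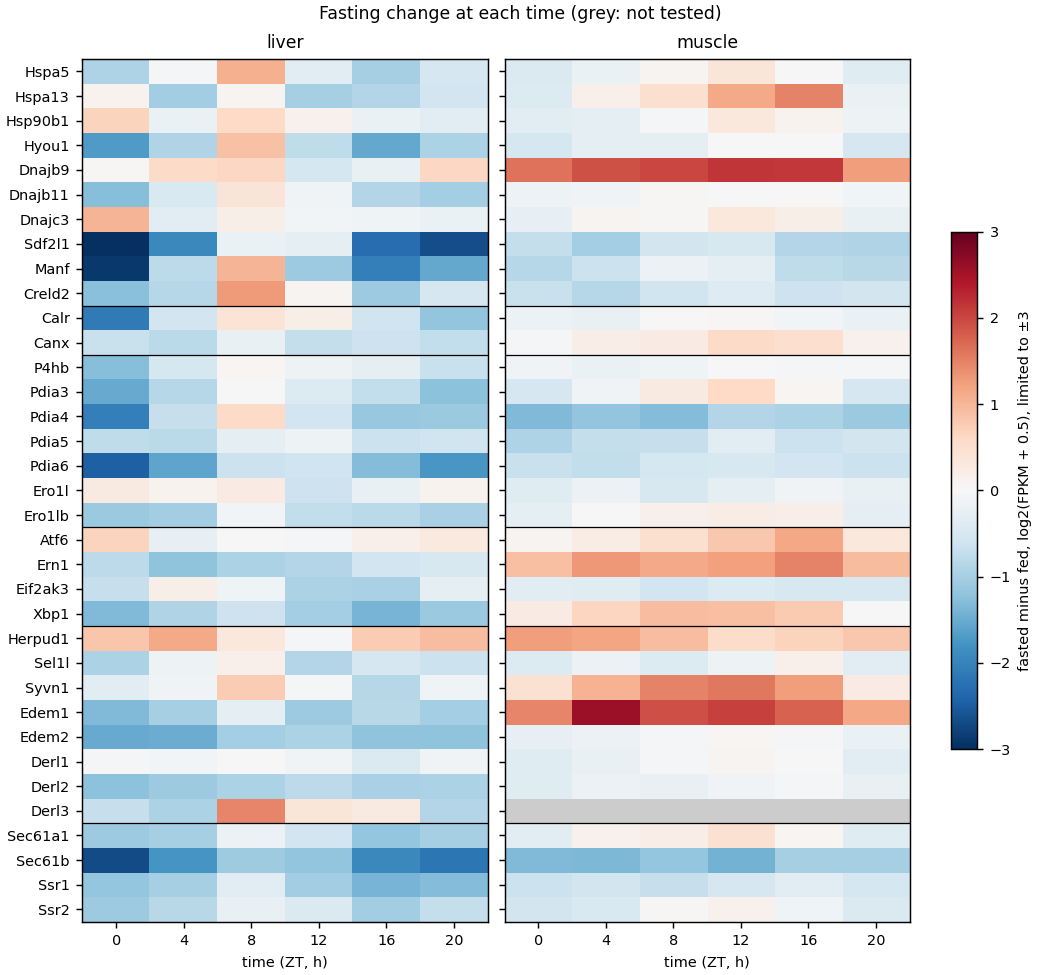
Fasting change of each gene at each time in liver and muscle, as fasted minus fed on the log2(FPKM + 0.5) scale from 3 libraries per group, with the colour limited to changes of 3. Most folding genes in liver turn from blue at ZT0 to pale or red at ZT8, where their median was 0.24. Dnajb9, Ern1, Herpud1, Syvn1 and Edem1 are red at every time in muscle.

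Daily rhythms of 24 h were tested in each state. In fed liver, 7 of 35 genes passed, against 39.7% of all genes (cosine fit, F test). Dnajb9 (amplitude 0.48 on the log2 scale, peak at ZT13.8, adjusted p = 0.00372), Herpud1 (0.50, ZT11.9), Ero1l (0.30, ZT13.9) and Atf6 (0.25, ZT10.8) peaked near lights off, and Calr (0.44), Sdf2l1 (0.88) and Pdia6 (0.35) near lights on. Pdia4 had the largest amplitude that did not pass (0.51, adjusted p = 0.0526). In fasted liver, 20 of 35 passed, against 31% of all genes, with peaks from ZT3.59 to ZT12.5, of which 16 lay between ZT6 and ZT12. The peak times of all genes are not given here, so this grouping is not read as particular to these genes. Sec61b (0.56, ZT9.76, adjusted p = 2.75e-05), Calr (0.77, ZT9.35), Dnajb11 (0.60, ZT8.45), P4hb (0.41, ZT10.9), Pdia6 (0.59, ZT9.79) and Derl1 (0.25, ZT3.59) had the smallest p-values. Creld2 had the largest amplitude that did not pass (0.56, adjusted p = 0.106). The rhythms themselves differed between states for 18 of 35 genes, against 32.4% of all genes, led by Calr (adjusted p = 0.000178), Sec61b, Pdia6, P4hb, Dnajb11 and Sdf2l1. Of these, Calr, Pdia6 and Sdf2l1 passed in both states, with peaks near lights on when fed and between ZT8.80 and ZT9.79 when fasted.

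In fed muscle only Herpud1 passed (amplitude 0.20, peak at ZT13.4, adjusted p = 0.0129), 1 of 34 against 4.46% of all genes, and Sdf2l1 had the largest amplitude that did not (0.22). In fasted muscle 16 of 34 passed, against 47.4% of all genes, and 13 of them peaked between ZT10 and ZT14. Peak times of all genes are not given here either, so this grouping too is not read as particular. Syvn1 (0.68, ZT10.4, adjusted p = 2.32e-12), Hspa13 (0.84, ZT12.8), Pdia3 (0.43, ZT10.2), Hspa5 (0.32, ZT11.9), Xbp1 (0.35, ZT10.2) and Atf6 (0.40, ZT14.0) had the smallest p-values, and Creld2 had the largest amplitude that did not pass (0.18). Rhythms differed between states for 18 of 34, against 32.6% of all genes, led by the same 6 genes, with Calr the largest F that did not pass (adjusted p = 0.162). None of those 6 passed in fed muscle.

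ER stress genes are known for 12-h rhythms in mouse liver, and 6 times 4 h apart allow such a wave to be fitted, with 3 times per cycle. A 12-h term can also take up the shape of a single daily peak, so passing does not show a second one. In fed liver, 10 of 35 genes passed, against 9.24% of all genes: Dnajc3 (amplitude 0.51, adjusted p = 0.00138), Syvn1 (0.35), Hsp90b1 (0.60), Hspa13 (0.47), Eif2ak3 (0.26), Ssr2 (0.20), Sec61a1, Creld2, Ssr1 and Hyou1. The first peaks of their fitted waves fell between ZT1.07 and ZT5.66, and Sdf2l1 had the largest amplitude that did not pass (0.59, adjusted p = 0.104). The count was 6 without fed ZT0 replicate 1 or fed ZT4 replicate 4. In fasted liver, 10 of 35 passed, against 5.19% of all genes: P4hb (0.28, adjusted p = 0.0188), Manf (0.84), Pdia4 (0.64), Sel1l, Calr, Pdia3, Sdf2l1, Dnajb11, Hspa5 and Canx, all with first fitted peaks between ZT5.90 and ZT6.43. By the means given above, fasted Hspa5 was high at ZT4 and ZT8 only, and the mean at ZT4 includes replicate 4, which stood apart. Creld2 had the largest amplitude that did not pass (0.54, adjusted p = 0.097). The fasted count was 0 without ZT0 replicate 1, ZT0 replicate 4 or ZT12 replicate 5, 6 without ZT4 replicate 4, ZT16 replicate 3 or ZT20 replicate 1, and 16 without ZT20 replicate 4. The 12-h terms themselves differed between fed and fasted liver for 4 of 35 genes, against 4.01% of all genes: Hyou1, Manf, Eif2ak3 and Syvn1 (adjusted p = 0.0319, 0.0366, 0.0305 and 0.0202). In muscle, limma called 0 of 34 in either state, against 0.472% of all genes in fed and 0.428% in fasted libraries, with 5 and 6 genes at an unadjusted p under 0.05.

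Intronic signal, which measures unspliced RNA, followed much of the fasting change. In liver, 32 genes were tested, of which 18 were lower and 2 higher (Herpud1 and Derl1), where 41.1% of all genes were lower and 18.6% higher. Intronic Xbp1 went from 28.6, 66.6 and 204 FPKM in the lowest, median and highest fed library to 15.8, 30.8 and 44.2 FPKM in the fasted. Its ranges overlapped, with a change of -1.36 ± 0.20 (adjusted p = 1.18e-06). Derl2 (-1.08 ± 0.11), Sec61b (-1.34), Edem2 (-0.94), Sec61a1 (-0.98) and Ern1 (-0.58) were the others of the smallest p-values, and Calr had the largest change that did not pass (-0.66, adjusted p = 0.0961). Of the 32, 17 were lower and 1 higher in both exonic and intronic signal, none was called in opposite directions, and 28 had the same sign. How often both signals agreed over all genes, in liver or in muscle, is not given here. The exonic minus intronic difference passed for 2 higher and 3 lower, where 23.9% of all genes were higher and 14.8% lower. These were Hyou1 (0.78 ± 0.16, adjusted p = 0.000383) and Syvn1 (0.70 ± 0.20), and Dnajb11 (-0.67), Derl1 (-0.47) and Ssr1 (-0.43), while Sdf2l1 did not pass (-0.93, adjusted p = 0.0503). Intronic Hyou1 went from 7.34, 12.7 and 53.9 FPKM to 0.992, 3.99 and 11.5 FPKM, a larger fall than that of its exons. The count of 5 was 9 with quantile normalisation and without fed ZT0 replicate 5, and 10 with a pseudocount of 1.

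In muscle, 29 genes had enough intronic signal, and 7 were higher and 13 lower, where 26.8% of all genes were higher and 42.9% lower. Intronic Edem1 went from 0.222, 0.901 and 1.41 FPKM in fed to 3.02, 4.52 and 7.79 FPKM in fasted libraries, with no overlap (1.96 ± 0.11, adjusted p = 2.62e-17). Dnajb9 went from 0, 1.03 and 2.04 FPKM to 1.11, 5.15 and 11.1 FPKM with overlap (2.11 ± 0.24, adjusted p = 3.02e-09). Herpud1 (0.99 ± 0.09), Syvn1, Xbp1, Hspa13 and Derl1 were the other rises, Sec61b (-1.48), P4hb (-0.76) and Pdia4 (-0.63) led the falls, and Derl2 did not pass (-0.21). Of 28 genes tested in both tables, 6 were higher and 10 lower in both, and 24 had the same sign. Derl1 alone was called in opposite directions: its exonic signal went from 23.1, 24.6 and 27.4 FPKM to 17.9, 22.3 and 25.5 FPKM, and its intronic signal from 0.744, 1.88 and 2.70 FPKM to 1.57, 3.33 and 6.07 FPKM. The exonic minus intronic difference passed for 8 higher and 5 lower, where 26.9% and 25.7% of all genes did so. Derl1 (-0.86 ± 0.12, adjusted p = 3.89e-07), P4hb (0.64 ± 0.11), Pdia4 (-0.55), Sel1l (-0.28), Dnajc3 (0.30) and Hsp90b1 (0.32) had the smallest p-values, and Sdf2l1 the largest difference that did not pass (0.35). The count was 7 in place of 13 when only ZT16 and ZT20, whose fed muscle lacked liver transcripts, were used. The libraries do not mark strand, so reads of overlapping or antisense genes within an intron cannot be told apart from unspliced RNA.

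**Figure D4:**
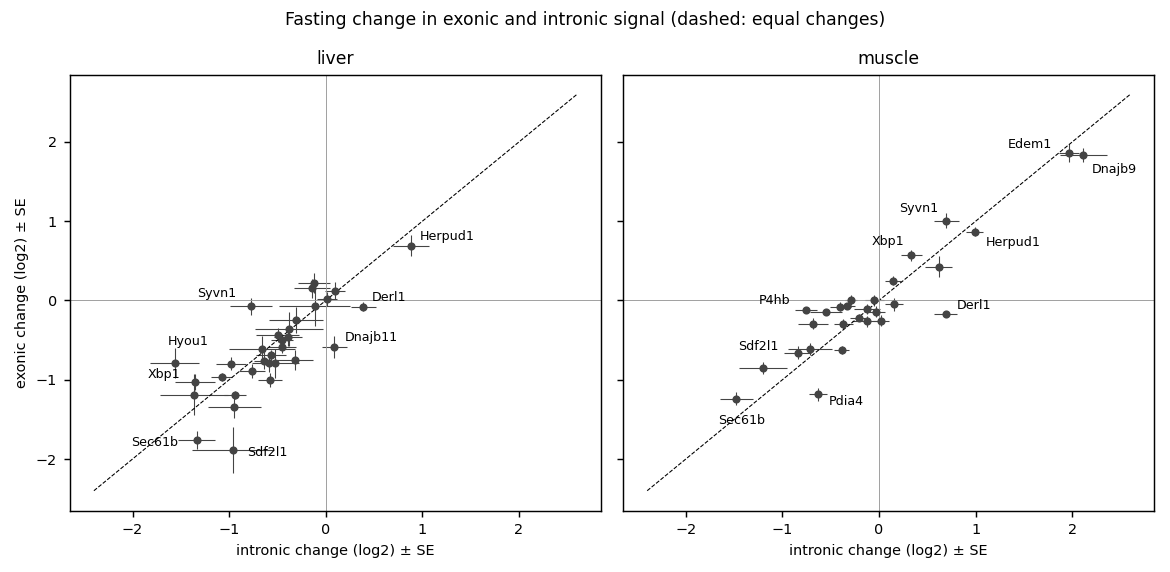
Fasting change of exonic signal (vertical) against that of intronic signal (horizontal) on the log2 scale with SE, for the 32 genes tested in both tables in liver and the 28 in muscle. The dashed line marks equal changes. Edem1, Dnajb9 and Herpud1 lie near the line on the high side in muscle, where Derl1 is the one gene called in opposite directions.

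Set against each other, folding genes and the degradation and sensor genes were about as far apart in fasted as in fed liver and closer together in fasted than in fed muscle. The mean log2 level of the 19 folding genes minus that of the 12 degradation and sensor genes was 0.648, 0.787 and 0.934 in the lowest, median and highest fed muscle library and 0.0165, 0.257 and 0.377 in the fasted. No fasted muscle library reached the fed range. In liver the values were 1.17, 1.49 and 1.78 fed and 0.528, 1.41 and 1.71 fasted, with wide overlap. Fasted liver was lowest at ZT0 (0.528 to 1.05) and highest at ZT8 (1.63 to 1.71), where fed liver was at 1.17 to 1.37. In muscle, the median change of the folding genes ran from -0.42 at ZT0 to 0.02 at ZT16, and that of the degradation and sensor genes from 0.02 at ZT20 to 0.68 at ZT16. The score describes genes chosen with results known and carries no test.

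**Figure D5:**
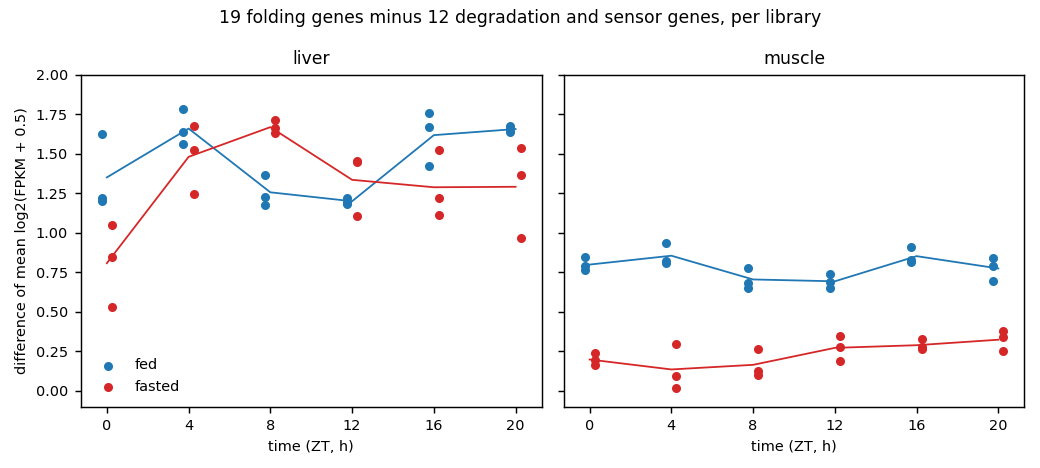
Mean log2(FPKM + 0.5) of 19 folding genes minus that of 12 degradation and sensor genes in each library, against time, in liver and muscle. Points are libraries and lines join the means of 3. Fed muscle lies at 0.648 to 0.934 and fasted muscle at 0.0165 to 0.377, while the means of the states cross in liver between ZT4 and ZT8 and again between ZT12 and ZT16.

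Other genes of the same pathways were read from lists of 99 genes in all. Their counts stand beside the 48% of all genes that fell and 25% that rose in liver, and the 51.8% and 30.3% in muscle. A count near these shares is not read as particular to its list. In the PERK branch, 4 of 11 tested genes rose and 1 fell in liver (median log2 change 0.03; with median-of-ratios scaling 5 rose and none fell), and 8 rose and 1 fell in muscle (median 0.78; 9 and 1). Ppp1r15a (GADD34), which directs the phosphatase that undoes PERK signalling, rose from 11.2 ± 1.83 to 94.6 ± 24.99 FPKM in muscle (SD, n = 18; 2.99 ± 0.07 log2, adjusted p = 2.80e-27) and by 0.53 ± 0.08 in liver. Atf4, the branch's transcription factor, rose in muscle (1.11 ± 0.07), while Ddit3 (CHOP) fell there from 18.2 ± 4.36 to 6.66 ± 0.71 FPKM (-1.36 ± 0.08). In liver Sesn2 (1.63 ± 0.16) and Trib3 (1.39 ± 0.22) had the smallest p-values besides Ppp1r15a. Nupr1 (-0.31 ± 0.16) in liver and Asns (0.01 ± 0.12) in muscle did not pass. Asns, Trib3 and Sesn2 are also known targets of the amino acid response.

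Of 19 other ER-associated degradation genes, 9 rose and 7 fell in liver (median 0.10; with median-of-ratios scaling 12 and 4), led by falls of the mannosidase Man1b1 (-0.59 ± 0.05), the ubiquitin ligase Rnf5 (-0.69 ± 0.06) and the selenoprotein Selk (-0.73 ± 0.08), and Ube2j1 did not pass (0.10 ± 0.06). In muscle 12 rose and 3 fell (median 0.25; 15 and 2), led by Herpud2 (1.25 ± 0.06), the conjugating enzyme Ube2g2 (0.73 ± 0.04) and the extraction cofactor Nploc4 (1.64 ± 0.09), and Ube2j2 did not pass (-0.19 ± 0.12, and 0.085 with quantile normalisation). Of 15 other genes of the translocon, signal peptidase and signal recognition tested in liver, 11 fell and 1 rose (median -0.61; 10 and 3 with median-of-ratios scaling), led by Tram1 (-1.36 ± 0.09), Sec11c (-1.10 ± 0.09) and Spcs2 (-1.11 ± 0.09), and Srp68 did not pass (-0.11 ± 0.07, and above 0 under both other scalings). In muscle 8 of 14 fell and 5 rose (median -0.16; 3 and 6), led by Sec62 (0.68 ± 0.05), Sec11c (-0.89 ± 0.06) and Tram1 (-0.67 ± 0.06), and Srprb did not pass (0.08 ± 0.05). Of 11 other ER oxidoreductases and prolyl isomerases, none rose and 7 fell in liver (median -0.38; with median-of-ratios scaling 2 and 6), led by Erp44 (-0.65 ± 0.05), Txndc5 (-1.21 ± 0.09) and Ppib (-1.29 ± 0.10), and Tmx3 did not pass (-0.16 ± 0.12, and 0.012 with that scaling). In muscle 2 rose and 8 fell (median -0.38; 2 and 6), led by Txndc5 (-0.97 ± 0.06), Fkbp14 (-0.92 ± 0.06) and Qsox1 (1.04 ± 0.08), and Tmx1 did not pass (-0.09 ± 0.07, and 0.11 with that scaling).

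Markers of other cell types are set here beside the 48% of all genes that fell and 25% that rose in liver, and the 51.8% and 30.3% in muscle. Of 6 macrophage markers, 5 fell in liver (summed level 33.5 to 147 FPKM fed and 20.1 to 66.4 FPKM fasted) and 2 of 3 tested fell in muscle, where Cd5l, Clec4f and Marco were near 0. Of 6 fibroblast markers, 5 fell and 1 rose in liver and 5 fell in muscle (334 to 543 FPKM fed and 236 to 421 FPKM fasted). Endothelial markers gave 4 falls in liver, and 4 falls and 2 rises in muscle. Hepatocyte markers gave 4 falls and 2 rises in liver and skeletal muscle markers 4 falls and 1 rise in muscle. Markers of B and plasma cells summed to at most 2.88 FPKM and of pancreatic acinar cells, both rich in ER, to at most 2.06 FPKM in any group. The part of these cells in the ER gene changes was not tested.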

How the data were processed

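Per the labels' protocols, RNA was extracted with TRIzol and libraries followed the TruSeq v2 guide for RNA, a method without strand information. The authors deposited 3 tables of FPKM values, for whole genes, exons and introns. The unit was taken as FPKM from the values: they are not whole, are never below 0, and step in inverse proportion to transcript length. The submitters' processing notes name the build mm10 and CASAVA 1.8.2. The aligner, counter and annotation were not given in the sources used here. Exonic and intronic values are each scaled to their own total, which bears on the exonic minus intronic difference. Estimated from the steps between low values of 4012 genes, depth was a median of 25.5 M reads per library (17 to 35.3 M).

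Each library's group is the one its labels give. Values were tested as log2(FPKM + 0.5) with limma 3.58.1 in R 4.3.3 (empirical Bayes with a trend), for genes that reached 1 FPKM in 3 or more of a tissue's libraries, with Benjamini-Hochberg adjustment over all genes tested and a threshold of 0.05. The fasting effect had time as a 6-level factor. Its interaction with time was an F test, the tissue difference a contrast of 24 group means, and rhythms F tests of 24-h and 12-h cosine and sine terms per state in 1 fit per tissue. Changes understate those of genes of low level. Models were tested on simulated data, where the fasting effect recovered 97.5% of changes of 0.5 log2 in liver and 96% in muscle. The interaction recovered a 0.5 log2 rise at ZT8 with an equal fall at ZT20 for 39% (liver) and 52.5% (muscle) of genes. The exonic minus intronic difference in liver recovered 55.5% of changes of 0.5 log2, so not passing says less in these tests. Alternatives were 2 other pseudocounts, no filter, median-of-ratios scaling, quantile normalisation, removal of a length trend, library weights, the times whose fed libraries lacked the other tissue's transcripts, a replicate block and leaving out each library. Liver at ZT0 alone, the other scalings of the pathway lists the 12-h difference between states and leaving out each library for the interaction were added after seeing the data.

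The genes, the pathway and marker lists and the rule for naming genes were chosen with earlier results of these data known. Values in every group are given for Hspa5, Xbp1, Atf6, Ern1 and Eif2ak3, and ranges for the 6 other genes per tissue with the smallest adjusted p and the largest change that did not pass. In other comparisons all that passed are named, or the 6 with the smallest p if over 8 passed, with the largest value that did not. Of each pathway list up to 3 genes per tissue are named and the largest change short of the threshold. Sdf2l1, Manf, Hyou1, Derl1 and others outside the rule were named to give each role its values, after their values were seen. Promoter windows are from RefSeq (GRCm38.p6), matched by symbol. Joins and figures used Python 3.11.15, pandas 2.3.3, NumPy 2.4.6 and matplotlib 3.10.9.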

Additional observations from a re-analysis of the deposited data

Results flagged for a closer look

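The fasting change differed between the tissues for 25 of the 34 genes measured in both, by the test of the difference itself (liver minus muscle, log2 scale). Of all 9419 genes, 38.5% were lower and 31.8% higher, so a difference of either sign was common and the count is not read as particular to these genes. Among the chaperones, the difference was -1.66 for Dnajb9, -1.14 for Sdf2l1, -0.99 for Hspa13, -0.64 for Manf, -0.56 for Hyou1 and -0.50 for Dnajb11. It was -0.89 for Canx and -0.54 for Calr. Among the oxidoreductases it was -0.80 for Ero1lb, -0.79 for Pdia6, -0.76 for Pdia3, -0.38 for P4hb and 0.25 for Ero1l, whose change was the higher in liver. Of the sensors, Ern1 differed by -1.98, Xbp1 by -1.65 and Atf6 by -0.37. Of the degradation genes, Edem1 differed by -2.75, Syvn1 by -1.13, Edem2 by -1.12, Derl2 by -0.81 and Sel1l by -0.27, which did not pass in 20 of 72 fits without 1 library or with either other scaling. All 4 translocation genes differed, Sec61a1 by -0.86, Sec61b by -0.59, and Ssr1 and Ssr2 by -0.49 each. The fasting change also differed between the 6 times, by the interaction of time and feeding state, for 25 genes in liver and for 15 in muscle. Of all genes, 40.7% passed this test in liver and 22.9% in muscle.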

How the results depend on the processing

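Replicate numbers were not treated as pairs, since the labels do not tie them to animals and not every pair correlated by over 0.1. Deviations of same-numbered fed and fasted libraries correlated by 0.057 on average in liver (4 of 11 pairs over 0.1) and 0.06 in muscle (4 of 12), and 5 of 11 and 7 of 12 correlated best with their own number. Between liver and muscle the mean was 0.125 fasted (5 of 9 over 0.1, against -0.024 for other numbers) and 0.0051 fed (2 of 10). With a replicate block, liver gave 1 higher and 24 lower and muscle 9 and 17, and no count moved by over 1.5 times. Genes below did not pass in the main fit of the named comparison unless said above. Whether each passed under the alternative is not given, and the cause of each move was not tested. In muscle the 18 rises with median-of-ratios scaling include genes that did not pass in the main fit. They also include 1 or more of Calr, P4hb and Derl1, which fell in the main fit. Median-of-ratios scaling gave 5 higher in liver (Ero1l 0.15, Syvn1 0.083, Derl1 0.079, Derl3 0.044) and 18 higher and 10 lower in muscle (Hspa5 0.12, Hsp90b1 0.15, Dnajb11 0.15, Calr 0.10, P4hb 0.11, Pdia3 0.18, Edem2 0.062, Derl1 0.054), and a tissue difference of 0.0032 for Eif2ak3. Quantile normalisation gave 4 higher in liver (Ero1l 0.096, Syvn1 0.043, Derl1 0.084, Derl3 0.11), 0.028 for Ero1l and 0.090 for Edem2 in muscle, 9 for the exonic minus intronic difference in liver, 9 for the interaction in muscle, and 4 higher for the tissue difference (Pdia5 -0.012). A pseudocount of 0.1 gave 3 higher for the tissue difference (Eif2ak3 0.059), a pseudocount of 1 gave 10 for the exonic minus intronic difference in liver (tissue difference of Pdia5 -0.066), and no filter gave 3 for the 12-h rhythm in fasted liver. Removing the length trend gave -0.0023 for Dnajc3 in liver, -0.043 for Dnajc3, -0.028 for Ero1lb and -0.012 for Sec61a1 in muscle, and 2 for the 24-h rhythm in fed muscle. Library weights gave -0.042 for Dnajc3 and 0.027 for Ero1l in liver and -0.014 for Dnajc3, -0.023 for Ero1lb and -0.035 for Sec61a1 in muscle. At the times whose fed libraries lacked the other tissue's transcripts, with fewer samples, Ero1l was at 0.19 in liver, Dnajc3 at -0.016, Ero1lb at -0.038 and Sec61a1 at -0.16 in muscle, and 12 (intronic, liver), 9 and 7 (exonic minus intronic, liver and muscle) passed. Liver at ZT0 alone, added after seeing the data, gave 4 higher, with Hspa13 at 0.099 and Ero1l at 0.28.

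Leaving out each library in turn gave 23 to 27 for the interaction in liver and 11 to 17 in muscle (added after seeing the data), 0 to 16 for the 12-h rhythm in fasted liver, 6 to 11 in fed liver and 0 to 1 in fasted muscle, 1 to 2 for the 24-h rhythm in fed muscle, 5 to 9 for the exonic minus intronic difference in liver, and 1 to 2 higher in liver and for the tissue difference. Falls in liver stayed at 24 to 27 and rises and falls in muscle at 9 and at 17 to 18. Derl3 ran from -0.17 to 0.047 and Ero1l from -0.039 to 0.027 in liver, Dnajc3 from -0.010 to 0.042, Ero1lb from -0.013 to 0.031 and Sec61a1 from -0.0042 to 0.048 in muscle, and the tissue difference of Derl1 from -0.00032 to 0.049. Depth limits genes of low level: Derl3 could not be tested in muscle, and 6 genes there had too little intronic signal.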

Other observations

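Beyond the genes described above, further lists were read, first that of the enzyme that attaches N-glycans. As before, 48% of all genes fell and 25% rose in liver, and 51.8% and 30.3% in muscle. Counts near these shares are not read as particular to a list. Of 9 subunits of the oligosaccharyltransferase, 8 fell in liver and none rose (median log2 change -0.80), led by Rpn2 (from 71.8 ± 8.75 to 41.0 ± 4.49 FPKM; SD, n = 18; -0.80 ± 0.06, limma, adjusted p = 1.01e-13), Ddost (-1.14 ± 0.09) and the catalytic subunit Stt3a (-0.90 ± 0.07). The fall of Magt1 in liver did not pass with median-of-ratios scaling (-0.24, adjusted p = 0.0505). The other catalytic subunit, Stt3b, did not pass in liver (0.05 ± 0.06) but passed as a rise there under both other scalings. Its change was 0.25 with median-of-ratios scaling (adjusted p = 0.000276) and 0.23 with quantile normalisation (adjusted p = 0.0011). In muscle Stt3b rose from 25.9 ± 2.14 to 55.8 ± 12.1 FPKM (1.07 ± 0.07, adjusted p = 3.05e-15). In muscle the other 8 subunits fell (median -0.25; 4 with median-of-ratios scaling), led by Ostc (-1.22 ± 0.06) and Magt1 (-0.58 ± 0.04). In the lectin cycle, Uggt1, the glucosyltransferase that sends unfolded glycoproteins back to calnexin, fell in liver (-0.85 ± 0.08) and rose in muscle (0.97 ± 0.07, from 6.71 ± 0.904 to 13.7 ± 2.28 FPKM). The cargo receptor Lman1 fell in both (-0.49 ± 0.08 and -1.01 ± 0.05), as did Ganab in liver (-0.27 ± 0.04) and Mcfd2 in muscle (-0.42 ± 0.04). The fall of Ganab did not pass with median-of-ratios scaling (-0.070) or quantile normalisation (-0.042). Of this list 5 of 6 fell in liver (median -0.32) and 4 of 7 fell and 2 rose in muscle (median -0.40), and with median-of-ratios scaling 3 fell in liver and 4 fell and 3 rose in muscle. Prkcsh in liver (-0.06 ± 0.08, above 0 under both other scalings) and Ganab in muscle (0.09 ± 0.05) did not pass.

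Genes of transport from the ER to the Golgi split. In liver 4 of 16 rose and 11 fell (median -0.30; 5 and 7 with median-of-ratios scaling), led by the COPII coat gene Sec23a (0.81 ± 0.07), the retrieval receptor Kdelr2 (-0.69 ± 0.07) and Tmed9 (-0.76 ± 0.09), while Sec31a was at 0 within its error (-0.0011 ± 0.06) and above 0 under both other scalings. In muscle 7 of 17 rose and 7 fell (median -0.036; 11 and 5), led by Kdelr3 (-1.40 ± 0.08), Sec24a (1.41 ± 0.09) and Sec23b (-0.80 ± 0.06), and Sec13 did not pass (-0.09 ± 0.04, 0.12 with median-of-ratios scaling). Among relatives of Atf6 and their proteases, Creb3l3, a liver factor of lipid metabolism, rose from 105 ± 11.03 to 185 ± 35.5 FPKM (0.80 ± 0.06), Creb3 rose by 0.26 ± 0.05 and the protease Mbtps1 fell by 0.34 ± 0.05 in liver, where 3 of 6 rose and 3 fell (median -0.036; 3 and 2). In muscle Creb3l1 (-1.20 ± 0.08) and Creb3l2 (-0.79 ± 0.11) fell, Atf6b rose (0.60 ± 0.10) and Creb3 did not pass (0.05 ± 0.06), and 2 of 6 rose and 2 fell (median 0.020; 4 and 2).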
